A study of Mus musculus with 8 samples.

Results

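The cadherin superfamily genes of mouse astrocytes were compared between brain regions. They were taken by symbol, as every gene that starts with Cdh or Pcdh or is one of Fat1 to Fat4, and matched to the count tables by Ensembl gene identifier. Of the 55417 genes counted, 102 met this rule. Of these 102, 57 had 15 or more counts summed over the 8 libraries and are the members described here, 14 had 1 to 14 counts and 31 had none.

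The RNA came from astrocytes sorted by flow cytometry from wild-type (WT) mice at postnatal day 29. Mice 1 and 4 were male and mice 2 and 3 female, and cortex and subcortical tissue of each of the 4 mice were sampled separately, which gave 4 libraries per region from 4 animals. No treatment is named, and how the cells were marked for sorting is not given in the labels. The kit makes libraries from the 3′ ends of polyadenylated RNA, so that 1 transcript gives about 1 fragment whatever its length, and levels of different genes are compared here without a length correction, as CPM (counts scaled to a common library size).

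Cadherins are membrane proteins that hold cells together through repeated calcium-binding extracellular domains. The classical cadherins bind the catenins, which tie them to actin, and the type II group differs from type I in the adhesive interface. Protocadherins give weaker adhesion and act largely in cell recognition: the delta groups are encoded by single genes, while the clustered alpha, beta and gamma genes lie in a row on 1 chromosome and are chosen one by one from alternative promoters. The FAT cadherins are giant relatives that work in planar polarity and growth control. In astrocytes, N-cadherin joins neighbouring cells and processes, and gamma protocadherins take part in contacts with neurons.

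Gene counts summed to 3537852 to 4060891 in the cortical libraries and to 2484717 to 3829804 in the subcortical ones. Marker calls given here are from the edgeR region test described below, at an adjusted p under 0.05, which called 6.81% of all genes tested. All 15 astrocyte markers were detected and tested, with summed levels of 37735 to 39713 cortical and 30437 to 32907 subcortical CPM. Of these 15, 4 were higher and 3 lower in cortical libraries. Markers of other cells were present at lower levels and were uneven. The summed neuron markers reached 309 to 689 CPM in cortical libraries, highest in mouse 4, and 113 to 172 CPM in subcortical ones. Of 15 markers 12 were tested, and 3 were higher and 1 lower in cortical libraries. The summed oligodendrocyte markers were 882 to 1419 cortical and 2314 to 5846 subcortical CPM, highest in mouse 1, and 8 of 10 were lower in cortical libraries. Of 9 precursor markers 5 were tested and 2 were lower in cortical libraries. Their sums were 243 to 319 CPM against 396 to 693 CPM, and Gpr17 was at 0. Of 12 microglia and macrophage markers 9 were tested and 3 were higher, with sums of 178 to 381 CPM against 127 to 223 CPM. The 13 mural, fibroblast and meningeal markers summed to 510 to 973 cortical and 428 to 1210 subcortical CPM. Their sum was highest in the subcortical library of mouse 3. Of these 13, 8 were tested and 1 was called lower, and Igf2 and Lum were at 0. Of 10 ependymal and choroid plexus markers 6 were tested and 1 was lower. They summed to 30.8 to 108 cortical and 62.4 to 689 subcortical CPM, again highest in the subcortical library of mouse 3. The choroid plexus gene Ttr reached 612 CPM in the subcortical library of mouse 3 and 0.23 to 23.8 CPM in the other 7. Endothelial markers summed to 8.17 to 48.2 CPM in any library, and Cdh5, the endothelial VE-cadherin, had no count in any.

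The cortical libraries held more RNA of R-cadherin (Cdh4), T-cadherin (Cdh13) and the protocadherins Pcdh1, Pcdh8 and Pcdh20 than the subcortical ones. They held less of the type II cadherins Cdh20 and Cdh22 and of Pcdh19. The part of other cells' RNA in these differences was not tested. Cdh4 was at 40.7 ± 17.7 cortical against 2.13 ± 0.40 subcortical CPM and Pcdh20 at 28.1 ± 5.82 against 1.89 ± 1.12 CPM (mean ± SD, n = 4 per region). The RNA is of bulk cells, so that fewer cells of a type and less RNA per cell cannot be told apart in these values. The most abundant members, Pcdh17 and Pcdh10, were not called, and they made up 35.1 to 40.4% of the summed members' CPM of a library. That sum was 2003 ± 151 cortical and 2295 ± 220 subcortical CPM (SD, n = 4), and its ranges of 1865 to 2192 and 2030 to 2513 CPM overlapped.

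The test behind these calls was edgeR's quasi-likelihood test of 4 cortical against 4 subcortical libraries, which did not use the pairing by mouse. It had Benjamini-Hochberg adjustment over the 11781 genes tested and a threshold of 0.05. Over all genes it called 802, or 6.81%, with 403 (3.42%) higher and 399 (3.39%) lower in cortical libraries. Of the 36 members that passed the filter on low counts it called 8 (22.2%), 5 higher and 3 lower. At an unadjusted p under 0.05 there were 14 of the 36 members and 17.4% of all genes. The count of 8 is not independent of the filter for Cdh4, Pcdh20 and Pcdh8, since all 4 cortical libraries but 0, 1 and 0 subcortical libraries exceeded the filter's level of 2.79 CPM for these genes. The 21 members that did not pass, with 15 to 90 counts in all, were 10 beta and 5 gamma protocadherins, Cdh7, Cdh26, Cdhr1, Cdhr3, Cdhr4 and Fat4. With no filter, 9 of 57 members (15.8%) were called, against 4.88% of all 20449 genes. DESeq2 called 9 of 55 (7.1% of all genes), a test against a fold of 1.5 called 5 of 36 (2.83%) and a threshold of 0.01 gave 6 of 36 (4.05%). The ranges of the 4 cortical and 4 subcortical CPM values did not overlap for 10 of the 36 tested members and for 12.2% of all genes tested.

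Directions among the members depended on how libraries were scaled, but the 8 calls did not. With library totals in place of TMM factors (trimmed means of M-values, which align the bulk of genes), all log2 fold changes moved up by a median of 0.20. The calls over all genes then went from 50.2% to 73.7% higher in cortical libraries, 682 higher and 244 lower. The members called were the same 8, 5 higher and 3 lower, beside 7.86% of all genes. Of the 36 tested members, 13 had a positive and 23 a negative log2 fold change with TMM, with a median of -0.17 beside -0.01 for all genes tested, and 19 were positive and 17 negative with library totals. The plot of fold changes by subfamily shows all 36.

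**Figure D1:**
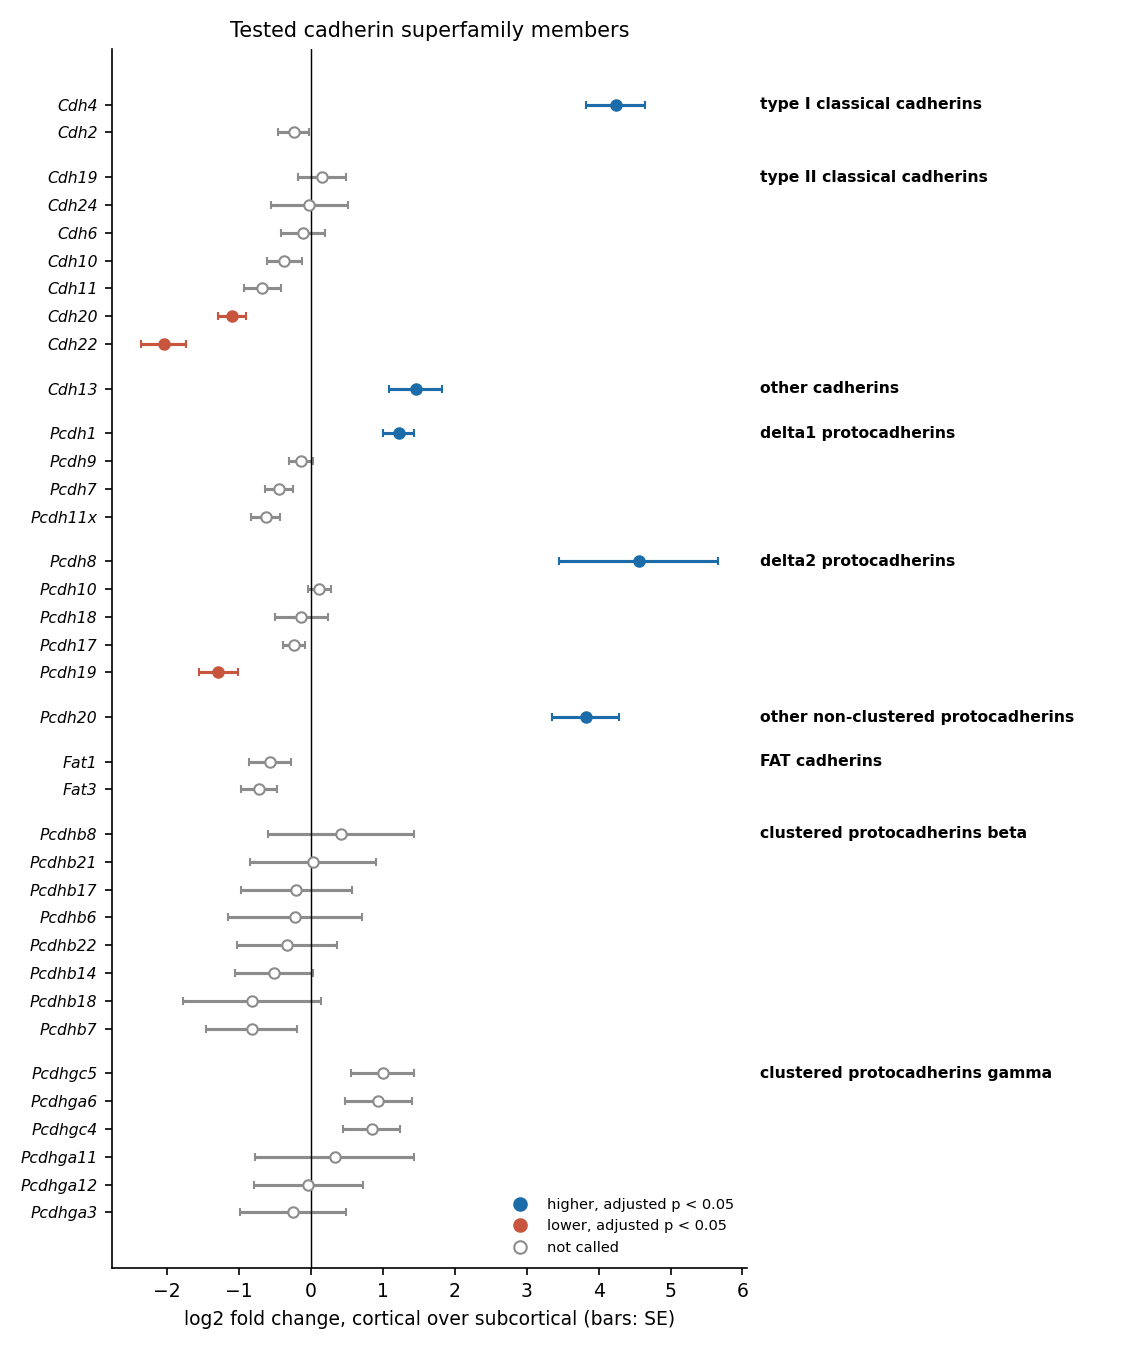
Log2 fold change, cortical over subcortical, of the 36 tested members by subfamily, with bars for 1 standard error (SE) from edgeR and filled points for adjusted p under 0.05. The 5 members called higher and 3 called lower belong to 6 subfamilies, while the 8 beta and 6 gamma clustered protocadherins have no call and SE of 0.39 to 1.11.

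Among the type I classical cadherins, 2 of 5 were tested. Cdh4 is R-cadherin, which binds itself and also N-cadherin. The cortical libraries of mice 1 to 4 held 66.5, 30.5, 27.8 and 37.8 CPM of it and their subcortical libraries 2.50, 1.92, 2.45 and 1.67 CPM, and the values of every other gene are given in the same order of mice. The lowest cortical library was far above the highest subcortical one, and mouse 1 had the highest cortical value. On the log2 scale the fold change was 4.24 ± 0.41 (SE), higher in 4 of 4 mice, with an adjusted p of 3.0e-07 from edgeR. Without the cortical library of mouse 4, which had the most neuron marker RNA, it was 4.27. The other cortical libraries still held 309 to 368 CPM of neuron markers, above the subcortical 113 to 172 CPM. The part of that RNA in this difference was not tested.

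Cdh2, or N-cadherin, the main adhesion molecule of neural cells, had 76.2, 96.2, 107.0 and 90.8 CPM in cortical libraries and 162.3, 85.5, 98.2 and 90.8 CPM in subcortical ones. The subcortical library of mouse 1 stood above all others and the remaining values overlapped. Its log2 fold change of -0.24 ± 0.21 did not pass the test (edgeR, adjusted p = 0.65), with a 95% interval of -0.68 to 0.20. The interval holds modest differences in either direction. Cdh1, Cdh3 and Cdh15 had 5, 0 and 5 counts in all.

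The type II classical cadherins had 2 members lower in cortical libraries and none higher, of 7 tested. Their summed level was 240 ± 22.0 cortical and 398 ± 39.0 subcortical CPM (SD, n = 4), with ranges of 219 to 269 and 345 to 432 CPM that did not overlap. Without Cdh20 and Cdh22, the sums were 165 ± 27.8 and 214 ± 44.5 CPM and their ranges of 145 to 205 and 160 to 252 CPM overlapped.

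Cdh20 is a type II cadherin with 74.9, 69.1, 59.8 and 53.5 cortical and 151.5, 168.7, 119.2 and 112.0 subcortical CPM. All 4 subcortical libraries were above all 4 cortical ones, and mice 1 and 2 had the higher values in both regions. Its log2 fold change was -1.10 ± 0.20, lower in 4 of 4 mice (edgeR, adjusted p = 0.00078).

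Cdh22, another type II cadherin of the brain, had 8.19, 13.0, 13.3 and 10.6 cortical and 31.2, 32.7, 65.0 and 57.1 subcortical CPM. Mice 3 and 4 had the higher subcortical values, and no subcortical library came near the cortical range. The fitted log2 fold change was -2.05 ± 0.32, lower in 4 of 4 mice (edgeR, adjusted p = 0.00015). In the subcortical library of mouse 1, where the oligodendrocyte marker sum peaked, Cdh22 was at its lowest subcortical value. Without that library the log2 fold changes were -2.19 for Cdh22 and -1.05 for Cdh20, and both calls stood. The other subcortical libraries still held 2314 to 3192 CPM of oligodendrocyte markers, above every cortical library. The part of that RNA in these differences was not tested.

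Cdh11, the osteoblast cadherin that is also made in brain, had 54.6, 43.8, 58.2 and 68.4 cortical and 100.7, 57.7, 61.9 and 137.1 subcortical CPM. Mice 1 and 4 supplied both high subcortical values and both are male, and the other subcortical values lay within the cortical range. The log2 fold change of -0.67 ± 0.25, lower in 4 of 4 mice, did not pass the test (edgeR, adjusted p = 0.142). Cdh10 (-0.37), Cdh6 (-0.10), Cdh24 (-0.02) and Cdh19 (0.15) did not pass either, and with library totals Cdh6 turned to 0.11 and Cdh24 to 0.21. Cdh7 was too low to be tested, and Cdh8, with 9 counts, was no member.

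Cdh13 is T-cadherin, which is held in the membrane by a lipid anchor, has no cytoplasmic tail and binds adiponectin. It had 19.4, 16.4, 36.0 and 43.1 cortical and 9.57, 8.17, 13.3 and 10.6 subcortical CPM. Mice 3 and 4 had the high cortical values, and the lowest cortical library was just above the highest subcortical one. Its log2 fold change was 1.46 ± 0.37, higher in 4 of 4 mice (edgeR, adjusted p = 0.0153). This call was lost in 5 of 19 alternative settings, the most among the 8. The adjusted p in edgeR was 0.072 without the cortical library of mouse 3 and 0.0859, with a log2 fold change of 1.19, without that of mouse 4. The latter library held the most neuron marker RNA, whose part in this difference was not tested further. The other 4 members outside the classical groups, Cdh26, Cdhr1, Cdhr3 and Cdhr4, were too low to be tested.

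**Figure D2:**
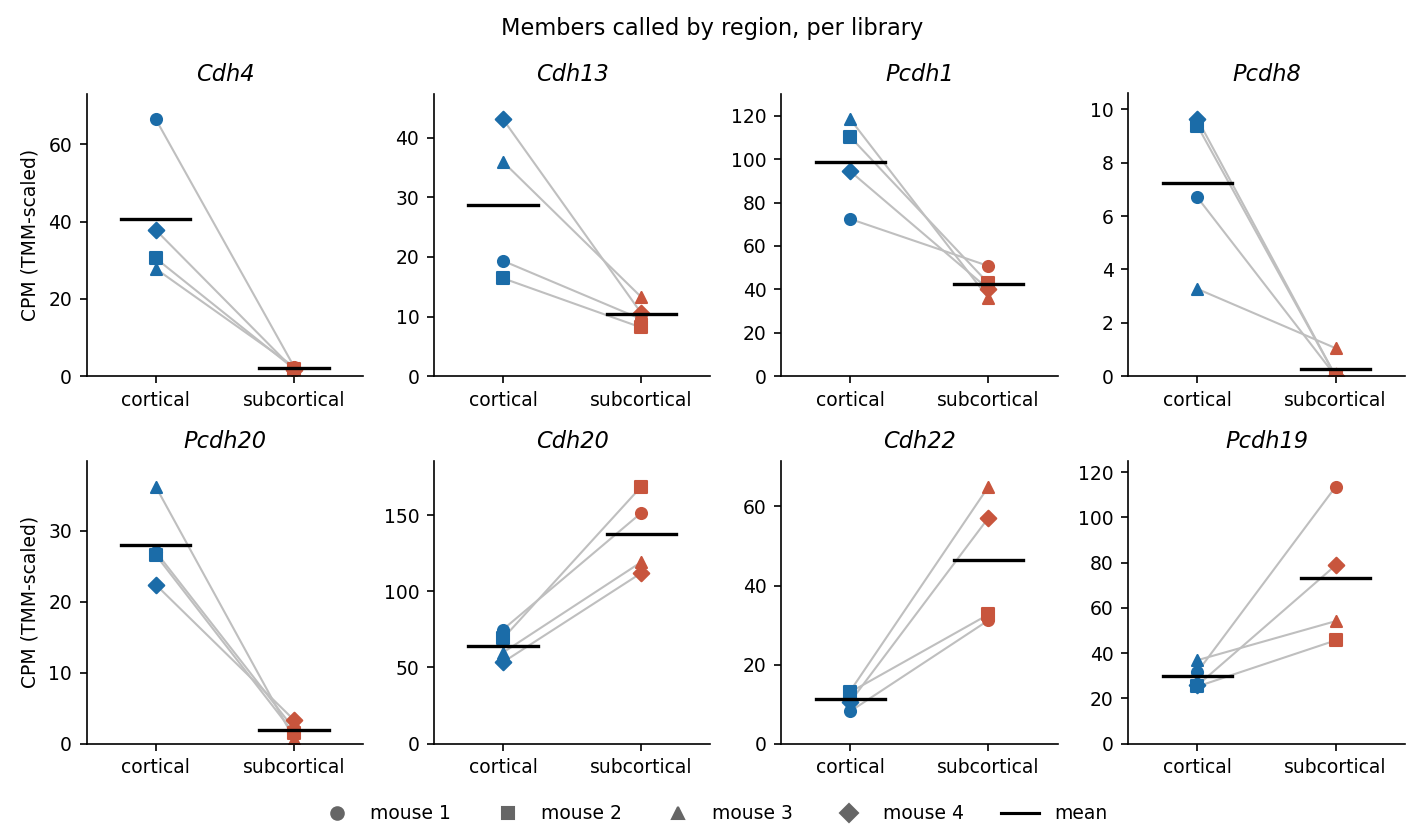
CPM on TMM-scaled library sizes of the 8 called members, 1 point per library with lines joining the cortical and subcortical library of a mouse and a black bar at the mean of 4. The regions do not overlap in any panel, and the axes differ, with a highest value of 9.63 CPM for Pcdh8 and of 168.7 CPM for Cdh20.

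All 4 delta1 protocadherins were tested, and 1 was called. The tails of this group hold a motif that binds protein phosphatase 1. Pcdh1, known from airway epithelium and also a hantavirus receptor, had 72.4, 110.3, 118.4 and 94.4 cortical and 50.8, 42.8, 36.0 and 40.1 subcortical CPM. The cortical value of mouse 1 was the lowest of its region and the subcortical value of mouse 1 the highest of the other, so that this mouse had the smallest gap. This gave a log2 fold change of 1.22 ± 0.22, higher in 4 of 4 mice (edgeR, adjusted p = 0.00068).

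The other 3 delta1 genes had negative log2 fold changes and did not pass, and that of Pcdh9 turned to 0.06 with library totals in place of TMM. Pcdh9 had 183.6, 197.6, 237.6 and 217.0 cortical and 215.1, 206.6, 210.7 and 284.5 subcortical CPM, with wide overlap (log2 fold change -0.13 ± 0.17, edgeR adjusted p = 0.77). Pcdh7 had 108.9, 101.2, 99.98 and 171.0 cortical and 161.9, 187.4, 136.6 and 166.6 subcortical CPM. The cortical library of mouse 4 was the one that overlapped. With all libraries the log2 fold change was -0.44 ± 0.20 (edgeR, adjusted p = 0.24). Without that library the adjusted p in edgeR was 0.0347. Leaving out the library that overlaps widens the gap by itself, so that this value is no support for a difference. Without any other single library it was 0.184 to 0.486.

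Pcdh11x, an X-linked gene, had 76.2, 60.2, 57.7 and 75.1 cortical and 93.6, 102.4, 84.2 and 135.4 subcortical CPM. The regions did not overlap and the gene was lower in cortical libraries of 4 of 4 mice. Its log2 fold change of -0.63 ± 0.20 had an adjusted p of 0.067 in edgeR and 0.0492 in DESeq2, on either side of the threshold. Without the subcortical library of mouse 3 the adjusted p in edgeR was 0.0488. Without any other single library it was 0.0693 to 0.261, and with library totals in place of TMM it was 0.291.

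The delta2 protocadherins held the highest levels, with a sum of 830 ± 51.9 cortical and 911 ± 97.7 subcortical CPM (SD, n = 4). Some delta2 tails recruit the WAVE complex, which drives actin branching at cell contacts. Pcdh17, which does so in contacts between axons, had 397.5, 421.8, 425.6 and 421.5 cortical and 542.2, 496.4, 403.6 and 509.3 subcortical CPM. Mouse 3 was the exception, with a subcortical value below its cortical one. The log2 fold change of -0.23 ± 0.15 did not pass (edgeR, adjusted p = 0.51), with a 95% interval of -0.55 to 0.09.

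Pcdh10, or OL-protocadherin, had 303.7, 343.9, 390.8 and 399.6 cortical and 332.5, 308.5, 310.3 and 372.2 subcortical CPM. The subcortical range lay within the cortical one. Its log2 fold change of 0.12 ± 0.16 (edgeR, adjusted p = 0.79) had a 95% interval of -0.21 to 0.45.

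Pcdh19 is an X-linked gene whose mutations in people cause an epilepsy seen mostly in females. It had 31.8, 25.3, 36.9 and 25.8 cortical and 113.6, 45.7, 54.2 and 78.8 subcortical CPM. All subcortical libraries were above the cortical ones, and the males, mice 1 and 4, had the higher subcortical values. Its log2 fold change was -1.29 ± 0.27, lower in 4 of 4 mice (edgeR, adjusted p = 0.0039). Oligodendrocyte markers peaked in the same library as Pcdh19, the subcortical library of mouse 1. Without it the log2 fold change was -0.996 and the adjusted p in edgeR 0.0352. The subcortical library of mouse 4, next highest in Pcdh19, had the lowest subcortical oligodendrocyte marker sum (2314 CPM). The part of that RNA in this difference was not tested.

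Pcdh8, or arcadlin, a protocadherin that neuronal activity induces and that helps to take N-cadherin off the surface of synapses, was nearly absent from subcortical libraries. It had 6.70, 9.39, 3.27 and 9.63 CPM in cortical libraries and 0, 0, 1.05 and 0 CPM in subcortical ones. These were 117 counts against 3, all 3 in mouse 3, a ratio of 26.2 between the library-scaled counts with an exact 95% counting interval of 8.74 to 129. A count of 0 in a subcortical library allows 0.84 to 1.44 CPM (3 counts). The adjusted p from edgeR was 0.0116, and it rose to 0.0512 without the subcortical library of mouse 1. Without the cortical library of mouse 4 its adjusted p in edgeR was 0.0373, and the part of neuron RNA in this difference was not tested. Pcdh18, the fifth delta2 gene, was at 17.1 ± 6.90 and 18.7 ± 6.64 CPM (SD, n = 4) and was not called.

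Pcdh20 is a non-clustered protocadherin placed here outside both delta groups. It had 27.0, 26.6, 36.2 and 22.4 cortical and 2.08, 1.44, 0.70 and 3.34 subcortical CPM. The regions were far apart, and the lowest cortical value was that of mouse 4, the library with the most neuron marker RNA. The log2 fold change was 3.82 ± 0.47, higher in 4 of 4 mice (edgeR, adjusted p = 8.0e-06), and 3.92 without that library. The remaining cortical libraries also held more neuron marker RNA than every subcortical one, and its part in this difference was not tested. Pcdh12 and Pcdh15 had 3 and 8 counts in all.

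The promoters of 4 non-clustered protocadherins were set side by side, although 3′ libraries do not read them. Pcdh8, Pcdh20 and the uncalled Pcdh17 lie on chromosome 14 and Pcdh19 on chromosome X. The stretches below are shown because they place 2 genes that were high in cortical libraries beside 1 that was low and 1 that was not called. They are the bases just before the outermost annotated start, 5′ to 3′ along the gene, from RefSeq for the build GRCm38.p6, at chr14:79771313-79771562 (minus strand) for Pcdh8, chr14:88471397-88471646 (minus) for Pcdh20, chrX:133689045-133689243 (minus) for Pcdh19 and chr14:84443313-84443562 (plus) for Pcdh17. Capitals mark CCAAT boxes on either strand (CCAAT or ATTGG) and the TATA box TATAAA. The 4 genes were picked after their values were seen, and these 2 motifs were searched after 3 others had no match.
Pcdh8: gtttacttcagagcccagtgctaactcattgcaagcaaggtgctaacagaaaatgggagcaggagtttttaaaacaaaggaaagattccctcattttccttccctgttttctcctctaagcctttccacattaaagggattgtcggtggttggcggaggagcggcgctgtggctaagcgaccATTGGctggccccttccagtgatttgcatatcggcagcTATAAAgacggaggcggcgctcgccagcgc
Pcdh20: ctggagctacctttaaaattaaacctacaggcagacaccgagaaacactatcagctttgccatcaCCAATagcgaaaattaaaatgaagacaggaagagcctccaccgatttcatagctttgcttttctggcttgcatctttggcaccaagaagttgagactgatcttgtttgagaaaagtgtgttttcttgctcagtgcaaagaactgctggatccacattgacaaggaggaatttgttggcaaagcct
Pcdh19: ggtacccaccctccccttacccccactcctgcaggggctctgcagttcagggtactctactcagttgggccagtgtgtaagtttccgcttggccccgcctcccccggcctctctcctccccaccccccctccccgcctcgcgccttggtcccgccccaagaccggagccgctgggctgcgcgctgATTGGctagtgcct
Pcdh17: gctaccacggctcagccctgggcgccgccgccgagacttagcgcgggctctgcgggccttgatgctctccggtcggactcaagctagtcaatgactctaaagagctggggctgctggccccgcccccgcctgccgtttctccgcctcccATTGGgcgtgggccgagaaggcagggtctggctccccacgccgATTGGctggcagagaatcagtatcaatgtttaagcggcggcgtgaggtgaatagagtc
The Pcdh8 stretch held 51.2% G and C, 11 CpG sites, 1 CCAAT box 68 bases and 1 TATA box 30 bases before its end. The Pcdh20 stretch held 42.4% G and C, 3 CpG sites and 1 CCAAT box, 185 bases before its end. Pcdh19 had 68.8% G and C and 11 CpG sites in 199 bases, with 1 CCAAT box 14 bases before the end. Pcdh17 had 64.8% G and C, 21 CpG sites and 2 CCAAT boxes. Among 32851 RefSeq windows of 250 bases, 33.8% held CCAAT and 12.4% TATAAA on either strand, and the median G and C content was 52.4%. At 199 bases the shares were 28.2% and 9.11%. The homeodomain motif TAATTA (4.84% of windows of 250 bases), the E-box CAGGTG (17.2%) and ACANNTGT (6.31%) were not found in any of the 4. These matches describe the letters only.

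Neither of the 2 tested FAT cadherins was called in the main edgeR test, which did not use the pairing, or in DESeq2. In that edgeR test 1 of them had an unadjusted p under 0.05. Both log2 fold changes were negative, with TMM and with library totals. Fat3, which shapes the dendrites of retinal amacrine cells, had 71.9, 43.3, 99.3 and 128.4 cortical and 116.5, 149.0, 122.3 and 175.8 subcortical CPM. The cortical library of mouse 4 reached into the subcortical range, although each mouse had less in its cortical library. The log2 fold change was -0.72 ± 0.25 with an adjusted p of 0.104 in edgeR. With the mouse as a block it was 0.0281, so that Fat3 became a ninth called member (7.51% of all genes were called with the block), and without the cortical library of mouse 4 it was 0.0163.

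Fat1, which acts in growth control and actin dynamics, had non-overlapping ranges of 15.1 to 24.8 and 27.0 to 34.5 CPM, but a log2 fold change of -0.57 ± 0.29 did not pass (edgeR, adjusted p = 0.33). Fat4, the receptor of the cadherin Dchs1, was too low to be tested, with 16 counts in cortical and 40 in subcortical libraries, and its CPM ranges of 0 to 2.17 and 2.88 to 4.89 did not overlap either. Fat2 had no count.

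**Figure D3:**
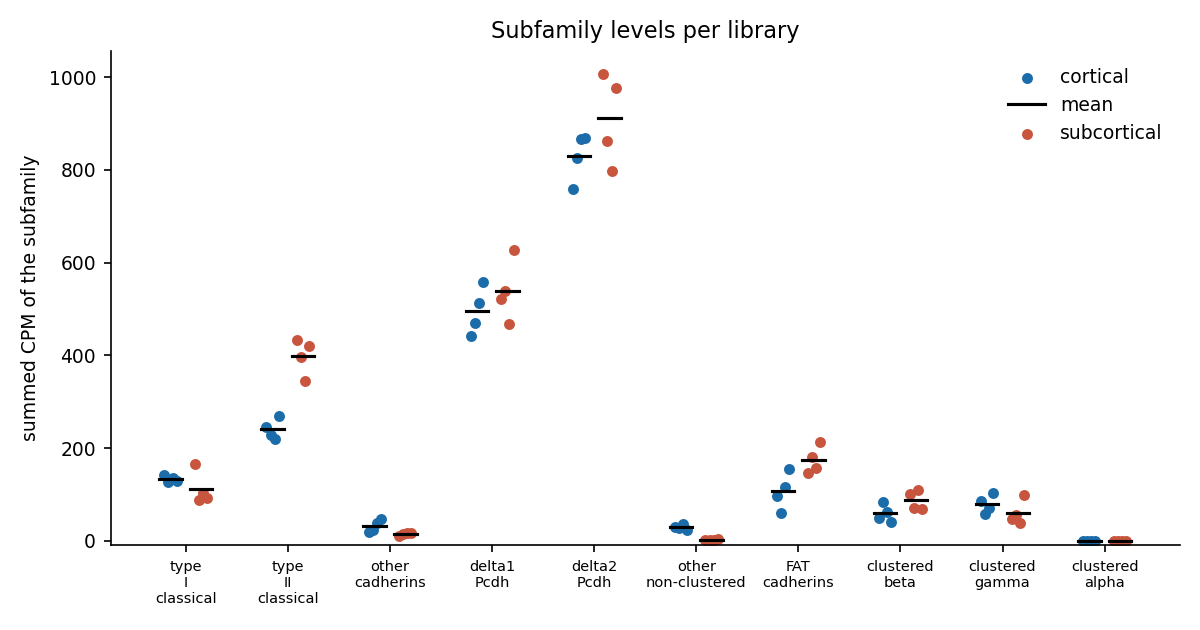
Summed CPM of each subfamily in each library, cortical in blue and subcortical in red, with a bar at the mean of 4 libraries. The delta2 group is highest, at 758 to 869 CPM in cortical libraries. The type II cadherins have separate ranges, 219 to 269 against 345 to 432 CPM. So do the other non-clustered protocadherins (22.4 to 36.7 against 1.40 to 3.34 CPM) and the other cadherins (19.4 to 47.9 against 11.2 to 16.4 CPM). Both of these are higher in cortical libraries.

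The clustered protocadherins were sparse. Their products form the barcode by which neurons tell their own branches from those of others. The 18 beta members, each a single-exon gene, had at most 71 counts in a library, and 5 of them had a count in all 8. The 8 tested had log2 fold changes of -0.82 to 0.42 with SE of 0.54 to 1.01, none of them called (lowest adjusted p 0.573, edgeR). The beta sum was 58.8 ± 18.9 cortical and 87.4 ± 20.9 subcortical CPM (SD, n = 4), with overlapping ranges of 40.2 to 83.7 and 69.1 to 110 CPM. At an unadjusted p under 0.05 there were 0, and DESeq2 called 0.

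Of 22 gamma genes 11 were members and 6 were tested. Pcdhgc5, one of the C-type gamma genes, was the highest, with 22.1 ± 10.5 cortical and 11.1 ± 4.98 subcortical CPM (SD, n = 4). Pcdhgc4 had 19.0 ± 8.41 and 10.5 ± 1.64 CPM and Pcdhga6 16.8 ± 3.96 and 8.66 ± 5.97 CPM. The log2 fold changes of these 3 were 1.00, 0.85 and 0.94, with adjusted p of 0.229, 0.266 and 0.312 in edgeR, and Pcdhgc4 and Pcdhga6 were higher in the cortical library of 4 of 4 mice. At an unadjusted p under 0.05 there were 2, and neither edgeR nor DESeq2 called any of the 6. The gamma sum, 79.1 ± 19.3 against 59.9 ± 26.3 CPM, had overlapping ranges. Pcdhga9 had 26 counts, all of them subcortical and in mice 2 and 4.

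All 14 alpha genes had 0 counts in all 8 libraries. This is no measure of their absence: in the annotation at hand (GENCODE M21, GRCm38) the last 500 bases of all 14 alpha and all 22 gamma genes overlap another gene of the same strand, against 1 of 22 beta genes, since alpha and gamma genes share constant last exons. A 3′ read from such an exon matches several genes at once. HTSeq, named in the submitters' processing notes, can leave such reads unassigned, and ambiguous reads were 0.38 to 0.55% of a library. The counting mode was not stated in those notes, and its part in the alpha and gamma values was not tested. The plot of clustered counts shows the values gene by gene.

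**Figure D4:**
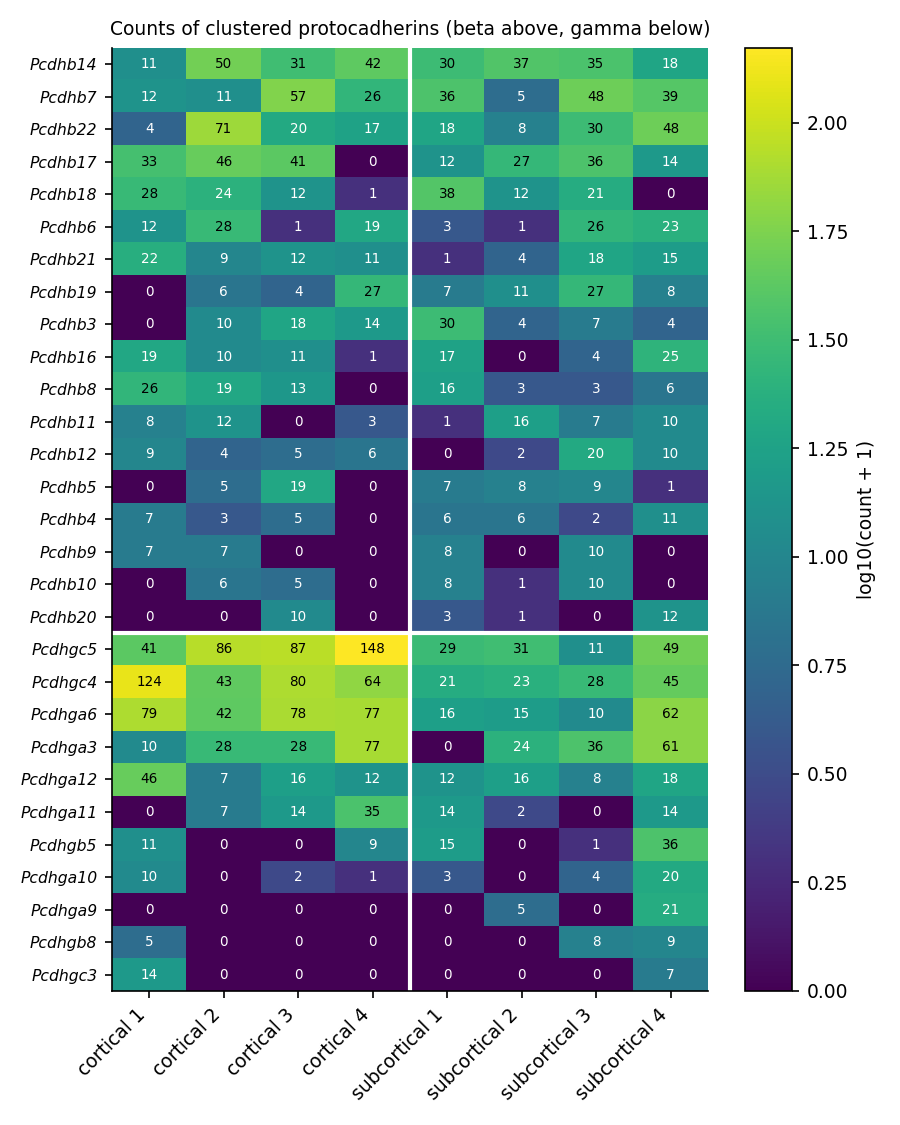
Counts of the 18 beta (upper block) and 11 gamma (lower block) clustered protocadherin members in each library, with colour for log10(count + 1) and the count in each cell. Counts of 0 occur in both regions, and the highest, 148, is that of Pcdhgc5 in the cortical library of mouse 4.

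The series' title names female mice, while the libraries came from both sexes, which were compared here. On counts summed over both regions of each mouse, 2 females against 2 males, edgeR called 0 of 46 tested members and 5 of 13402 genes (0.0373%), and DESeq2 called 0 members as well (0.0245% of all genes). At an unadjusted p under 0.05 in edgeR there were 3 members (3.73% of all genes), Cdh11 (log2 female over male -0.66 ± 0.25), Pcdhb17 (1.41 ± 0.65) and the sparse Pcdhgb5. None passed the adjustment over all genes. The difference between the sexes in the regional contrast gave 0 of 36 members and 0 of 11781 genes (0%) in edgeR, and 0 members and 0% of genes in DESeq2. Pcdh19 was the single member with an unadjusted p under 0.05 (0.0438, against 3.42% of all genes), with regional log2 fold changes of -0.68 in females and -1.74 in males and an adjusted p of 1.00.

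Of the genes that work with cadherins, some were called. Beside each list below stand the shares over all genes tested, 6.81% called and 17.4% with an unadjusted p under 0.05 in edgeR. Of 17 tested catenins and tail binding partners 1 was higher and 0 lower, and 6 had an unadjusted p under 0.05. The called gene was Ctnnbip1, or ICAT, which keeps beta-catenin from its transcription partners, with 310, 286, 307 and 283 cortical and 115, 133, 96.8 and 114 subcortical CPM (log2 fold change 1.37 ± 0.16, edgeR adjusted p = 5.8e-06). The values fell into 2 tight groups. Beta-catenin itself (Ctnnb1), alpha-N-catenin (Ctnna2) and delta-catenin (Ctnnd2) had log2 fold changes of -0.38, 0.38 and 0.10 and did not pass (adjusted p 0.28, 0.65 and 0.84 in edgeR).

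Among 9 tested FAT ligands and planar polarity genes, 2 were higher and 2 lower, and 5 had an unadjusted p under 0.05. Fjx1, the mammalian relative of the Golgi kinase that modifies FAT and Dachsous in flies, had 378, 275, 325 and 343 cortical and 144, 91.8, 131 and 118 subcortical CPM (log2 fold change 1.44 ± 0.18, edgeR adjusted p = 9.3e-06). Celsr1, a seven-pass cadherin of the planar polarity core, was at 17.8 ± 3.28 against 3.38 ± 2.07 CPM (log2 fold change 2.35 ± 0.51, adjusted p = 0.0041 in edgeR). Both were higher in 4 of 4 mice. Vangl1 and Vangl2, membrane proteins of the same core, were lower at log2 fold changes of -1.004 and -1.003 (adjusted p 0.0154 and 0.0150 in edgeR), higher in the subcortical library of 4 of 4 mice. Vangl1 lost its call without the cortical library of mouse 2 or 3 or the subcortical library of mouse 4 (adjusted p up to 0.116) and with library totals (0.0552). Vangl2 lost it without the cortical library of mouse 1, 2 or 3 (adjusted p up to 0.0711). Dchs1, the ligand of Fat4, was not called (0.38, adjusted p = 0.45).

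Of 13 tested genes for shedding and processing, 2 were higher and 2 lower, and 5 had an unadjusted p under 0.05. Tmtc1 to Tmtc4 encode enzymes that add mannose to cadherin domains. Tmtc4 had 74 counts in cortical libraries, 15 to 23 in each, and none in subcortical ones, at least 16.5-fold higher when 3 counts over all 4 subcortical libraries are taken as the floor (edgeR, adjusted p = 0.0064). Tmtc4 passed the filter on low counts through its cortical libraries alone, so that its call is not independent of the filter. Tmtc1 went the other way, with 15 counts in cortical and 115 in subcortical libraries (edgeR, adjusted p = 0.0173). It passed the filter mainly through its subcortical libraries, so that its call is not independent of the filter either. Tmtc2 was also lower in cortical libraries, at 37.9 ± 10.4 against 72.3 ± 16.9 CPM (adjusted p = 0.0225, edgeR). The call of Tmtc1 was lost without the subcortical library of mouse 1 or 4 (adjusted p up to 0.133) and that of Tmtc2 without the cortical library of mouse 3 or the subcortical library of mouse 4 (up to 0.112) and with library totals (0.0987). Tmtc3 did not pass. Furin, the protease that removes the prodomain of classical cadherins, had 52.3 ± 6.61 against 29.8 ± 5.44 CPM (log2 fold change 0.81, adjusted p = 0.0462 in edgeR), and this call was lost in 10 of 19 alternative settings, among them leaving out any single library other than the subcortical one of mouse 3 (adjusted p up to 0.140).

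Of 13 tested effectors of protocadherin tails, WAVE complex genes among them, edgeR and DESeq2 called 0, and 2 had an unadjusted p under 0.05 (Abi1 and Brk1). Of 12 regulators of the clustered promoters 3 had an unadjusted p under 0.05, and 1 was called lower and 0 higher. The called gene was Stag1, a cohesin subunit, at 24.8 ± 4.05 against 48.5 ± 12.2 CPM (log2 fold change -0.96, adjusted p = 0.0263 in edgeR). That call was lost in 7 of 19 alternative settings, among them library totals in place of TMM (0.1095) and leaving out the cortical or subcortical library of mouse 2, the cortical one of mouse 3 or the subcortical one of mouse 1 (adjusted p up to 0.117). Of 2 tested calsyntenins, Clstn1 and Clstn3, edgeR and DESeq2 called 0, and 0 had an unadjusted p under 0.05.

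**Figure D5:**
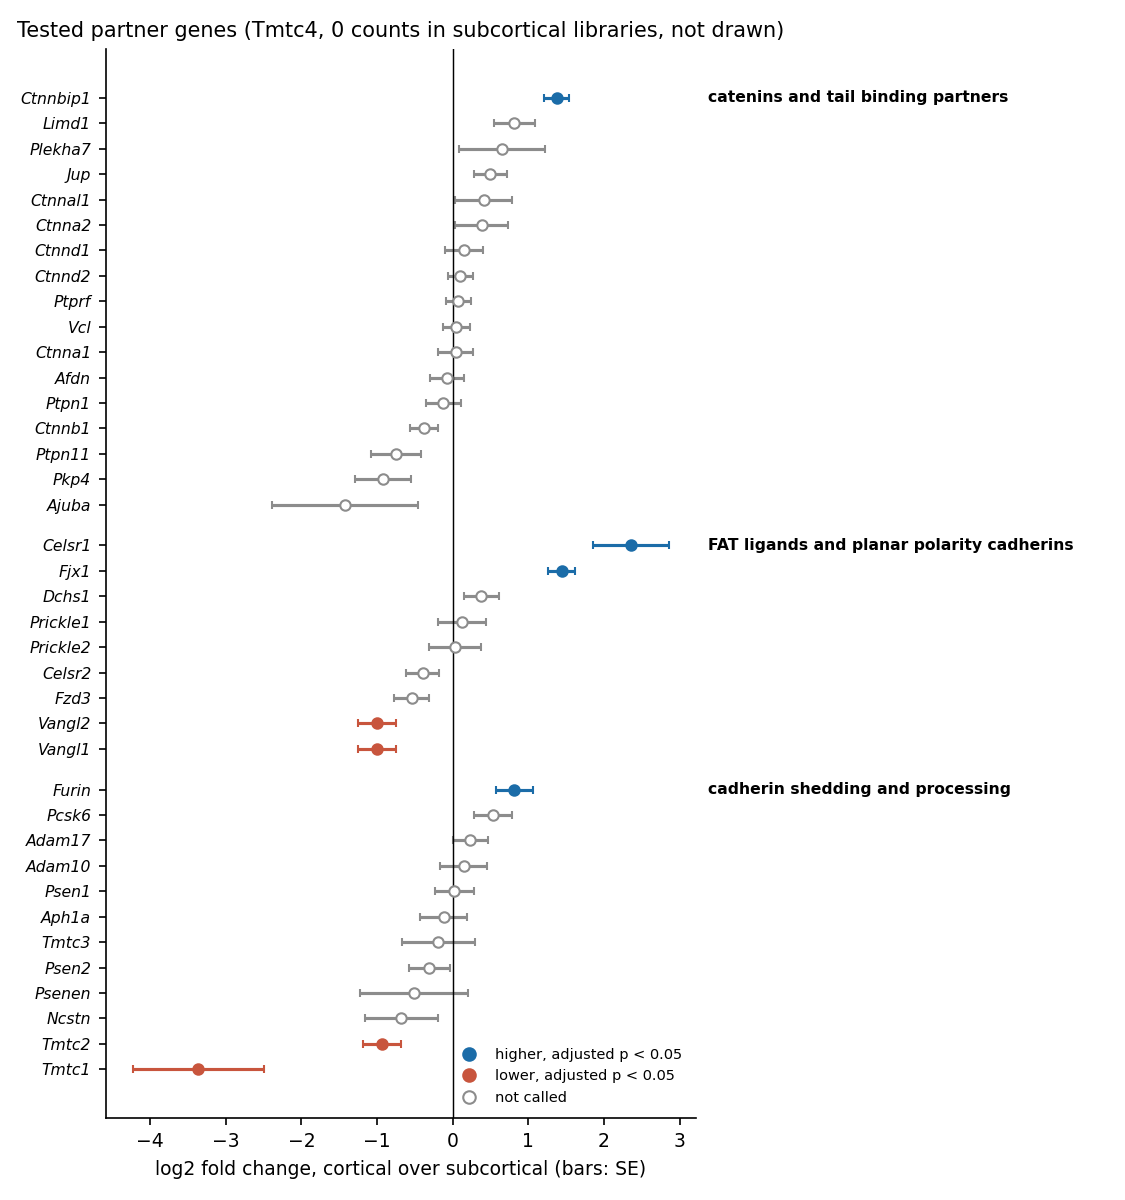
Log2 fold change, cortical over subcortical, of tested genes in 3 lists of cadherin partners, with bars for 1 SE from edgeR and filled points for adjusted p under 0.05. Ctnnbip1, Celsr1, Fjx1 and Furin lie to the right, Vangl1, Vangl2, Tmtc1 and Tmtc2 to the left, and Tmtc4 is not drawn since it had 0 counts in subcortical libraries.

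Without the cortical library of mouse 4 (most neuron marker RNA), 7 of the 8 calls stood (6.39% of all genes were called), the exception being Cdh13, and Fat3 and Pcdh7 were called in addition. Likewise, without the subcortical library of mouse 1 (most oligodendrocyte marker RNA) 7 of 8 stood (5.43% of all genes), the exception being Pcdh8. Without the subcortical library of mouse 3 (most choroid plexus and meningeal marker RNA) all 8 stood, and 6.25% of all genes were called. Leaving out the first of these libraries, the cortical neuron marker sums of 309 to 368 CPM stayed above the subcortical 113 to 172 CPM. Leaving out the second, the subcortical oligodendrocyte marker sums of 2314 to 3192 CPM stayed above the cortical 882 to 1419 CPM. Leaving out 1 library thus did not remove the regional difference in these markers. The part of other cells' RNA in the regional differences was not tested.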

How the data were processed

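Per the labels' protocols, the sorted astrocytes gave RNA by an RNeasy Plus Micro kit, from which forward QuantSeq 3′ libraries were made. The tools in the submitters' processing notes are STAR 2.6.0, HTSeq 0.9.0, FastQC 0.11.5 and DESeq2 1.35.0, with the build GRCm39. Their settings, strand and molecular identifiers were not stated there, which makes overlapping or near-identical genes uncertain. The authors deposited whole-number read counts per gene for each sample, and these were used as deposited. HTSeq's summary lines were left out of all totals and fits. Reads with no feature were 30.2 to 40.7% and ambiguous reads 0.38 to 0.55% of a library's total. The authors' normalized table, with 8 columns of sample values, was not used. Symbols were found for 52083 of 55417 identifiers. Genes sharing 3′ ends were counted in GENCODE M21 (GRCm38), and promoter sequences were found by symbol in RefSeq tables of GRCm38.p6; the entries of Cdh4 and Cdh13 were not found.

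Regions were compared with edgeR 4.0.16 (R 4.3.3): filterByExpr (minimum count 10), TMM factors, quasi-likelihood tests and Benjamini-Hochberg adjustment at 0.05 over all genes tested. Directions are cortical minus subcortical. Sex was tested on counts summed per mouse, and its interaction with region in a fit with a mean per sex and region. Levels are CPM on TMM-scaled library sizes. The 95% intervals of log2 fold changes come from the edgeR fit and include the spread between libraries. The exact interval of the Pcdh8 ratio and the floors (3 counts) are at 95% and cover counting error only. The members, lists and tests were chosen with earlier results of these data known. Named in full are members called by region and those among the 10 with the highest mean CPM; of each partner list, up to 4 called genes with the smallest p, with Ctnnb1, Ctnna2, Ctnnd2, Dchs1 and Fjx1 in any case. Abi1, Brk1, Clstn1, Clstn3 and Tmtc3 were named after their values were seen.

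The pairing comes from the labels, since same-numbered samples are from the same mouse. Over genes, the residuals around the region means had correlations of 0.0195 to 0.0592 within a mouse and of -0.0841 to 0.0471 between mice. Any pair of libraries from 1 region differed beyond counting noise, with a chi-square of 12.2 to 25.3 per degree of freedom, and each was taken as a replicate. On counts simulated for the 11781 genes of the region test, it called 30 of 100 genes changed 2-fold, 78 of 100 changed 4-fold and 7 of 11581 unchanged ones. The changed genes were drawn only from those above a minimum mean count, so that recovery of sparser members such as Pcdh8 was not measured. Alternatives were other size factors, library totals, DESeq2 1.42.0, limma-voom (limma 3.58.1), no and a 5 CPM filter, the mouse as a block, sex as a covariate, a test against a fold of 1.5, an adjusted p under 0.01, each library left out and counts thinned to the smallest total.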

Additional observations from a re-analysis of the deposited data

Results flagged for a closer look

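Among the 32 groups of 4 libraries checked (each region, for the members named in full), 5 held 1 library far from the other 3 of its region. Chance alone flags about 1 in 20 groups. Pcdh8 was at 1.05 CPM, or 3 counts, in the subcortical library of mouse 3 and at 0 in the other 3. Any value above 0 beside 0 in the other 3 is flagged, so that this flag does not measure a distance. The rate of 1 in 20 does not apply to it. Pcdh17 was at 397.5 CPM in the cortical library of mouse 1, below the others. Pcdh9 was at 284.5 CPM in the subcortical library of mouse 4, Pcdh7 at 171.0 CPM in the cortical library of mouse 4 and Cdh2 at 162.3 CPM in the subcortical library of mouse 1, each above the others. The cortical library of mouse 4 also had the highest neuron marker sum of all 8 and the subcortical library of mouse 1 the highest oligodendrocyte marker sum, and the part of these in the single values was not tested. Of these 5 genes, Pcdh8 was called by region in edgeR with all libraries. Pcdh7 was called only when its outlying library was left out (edgeR, adjusted p = 0.0347). That library was the one that overlapped, so that this call is no support for a difference.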

How the results depend on the processing

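Under 19 alternatives for the region test, none of the 8 called members changed direction. Cdh4, Pcdh20, Pcdh1 and Cdh22 stayed called in all 19. Called members numbered 7 to 9 except in the test against a fold of 1.5, which called 5 (4 higher, 1 lower; 333 of all genes), and at an adjusted p under 0.01, with 6 (477 of all genes). Cdh20 and Pcdh19 lost their calls in the fold test alone. Cdh13 lost it there, at 0.01, with limma-voom (adjusted p = 0.0806) and without the cortical library of mouse 3 or 4, and Pcdh8 at 0.01 and without the subcortical library of mouse 1; Pcdh8 was not tested with the 5 CPM filter or after thinning. With the paired design (mouse as a block) 885 genes and 9 members were called, Fat3 (adjusted p = 0.0281) being the added one, and it changed no other member's call. Without single libraries, 614 to 775 genes and 7 to 9 members were called. Fat3 also passed with limma-voom (0.0496), with no filter (0.0128) and without the cortical library of mouse 4. By sex and for the interaction, 0 members were called in every alternative run. Depth limits genes under a few CPM, where 3 counts make up 0.70 to 1.44 CPM.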
